A study of Mus musculus with 12 samples.

Results

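The genes described are *Hes1*, *Hes5*, *Hes6*, *Hes7*, *Hey1*, *Hey2*, *Heyl* and *Nrarp*, which encode transcriptional effectors and feedback regulators around the Notch receptor. They were taken by exact gene symbol from the raw count tables, and all 8 were found among 24525 genes. The data come from NSPCs, the stem and progenitor cells of the embryonic brain, grown as neurospheres from E14.5 embryos of the C57BL/6 strain, at passage 1, in medium with 20 ng/ml EGF and 10 ng/ml bFGF. Wild-type cultures were compared with *Ythdf2*-/- cultures, which lack the m6A reader Ythdf2 after a ubiquitous Cre removed the 5′ end of the gene and heterozygous carriers were bred together. Each genotype has 3 input libraries, made from sheared mRNA kept apart from the antibody step of an m6A-IP. The study calls them biological replicates, but whether a culture came from 1 embryo or a pool is not given in the sources used here. The p-values below measure the spread between these libraries only.

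When a Notch receptor is bound by a ligand on a neighbouring cell, its intracellular domain is released, enters the nucleus and joins the DNA-binding protein Rbpj and Mastermind coactivators. Hes and Hey proteins are basic helix-loop-helix repressors induced by this complex, and in the embryonic forebrain they hold back proneural genes such as *Neurog2* and keep radial glia undifferentiated. Hes6 is an exception in the family, since it promotes neuronal differentiation and counters Hes1. Nrarp is a small ankyrin-repeat protein, itself induced by Notch, that limits the pathway.

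The genes lie on 7 chromosomes of the GRCm38.p6 assembly, which has the same chromosome sequences as mm10. *Hes5* is at chr4:154960626-154962372 and *Heyl* at chr4:123233556-123249870, both on the plus strand. *Hes1* occupies chr16:30065357-30067796, *Hes7* chr11:69118906-69124054 and *Nrarp* chr2:25180758-25183339, all on the plus strand. The minus-strand genes are *Hes6* at chr1:91411483-91414038, *Hey1* at chr3:8663359-8667038 and *Hey2* at chr10:30832359-30842783. Their curated transcripts have 3 exons for *Hes5*, 4 for *Hes1*, *Hes6* and *Hes7*, and 5 for *Hey1*, *Hey2* and *Heyl*, while *Nrarp* has 1. Other annotated genes overlap *Hes7*, *Hey1* and *Hey2*, with 0 bases shared between curated exons.

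Rbpj recognises the letters GTGGGAA, and these were searched on both strands of the 250 bases before each start in the RefSeq promoter sequences. The starts used for *Hes5* and *Hes7* are at 154960923 and 69120453, inside the gene spans above, which reach further upstream, and so the printed runs of both also lie inside those spans. Promoters were at hand for 5 of the 8 genes, *Hes5*, *Hes6*, *Hes7*, *Hey2* and *Nrarp*. *Hes5* held 2 matches, and *Hes7* and *Hey2* held 1 each, against 5.42% of 32851 promoter windows with at least 1 match. The windows of *Hes6* and *Nrarp* held 0, which says only that these letters are not in them. The 4 matches are printed because *Hes5* and *Hey2* are among the genes whose levels differed most between libraries below. Each run is 30 bases on the strand of its gene, and capitals mark GTGGGAA or, for a match on the other strand, its reverse complement.
*Hes5*, 83 bases before the start, chr4:154960829-154960858, plus strand: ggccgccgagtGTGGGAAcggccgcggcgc
*Hes5*, 226 bases before the start, chr4:154960686-154960715, plus strand: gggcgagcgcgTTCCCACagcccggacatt
*Hes7*, 180 bases before the start, chr11:69120262-69120291, plus strand: cctcccctcacTTCCCACatttggggctag
*Hey2*, 207 bases before the start, chr10:30842972-30843001, minus strand: gcgcggtggcaTTCCCACgcctctgccaac
The letters CACNAG, the N box bound by Hes repressors, were also searched on both strands, and 36.7% of the windows hold them. *Nrarp* had 2 matches, *Hes7* 1 and the downstream of 2 *Hes6* windows 1, and *Hes5* and *Hey2* had 0. No printed run overlaps a CACNAG match.

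The input libraries held 11029827 to 13185778 counted reads, with 16327 to 16593 genes detected. *Ythdf2* had 840, 961 and 999 counts in the wild-type libraries and 137, 198 and 138 in the *Ythdf2*-/- libraries, or 15.8% of the wild-type mean in CPM, the count scaled to a common library size, so every library matched its label. Its log2 fold change was -2.66 (SE 0.183), with an adjusted p of 0.0547 in edgeR's test and 1.65e-30 in DESeq2's. Wild-type library 3 stood apart from the rest. Its mean Spearman correlation with the other libraries, across genes, was 0.8997, against 0.962 to 0.970 for the others. Reads of 4 Y-linked genes summed to 1111 to 2147 in wild-type libraries 1 and 2 and *Ythdf2*-/- library 3, and to at most 1 in the other 3. Stem and radial glia markers were abundant in every library, with summed levels of 5470 CPM in wild-type library 3 and 7990 to 9270 in the others. *Vim* and *Fabp7*, at 1440 and 760 CPM, were among the 3 of 10 that were lowest in that library, while 6 of 10 were highest there. The 8 microglia and macrophage markers summed to 1.13 to 1.55 CPM, with *Ptprc* and *C1qa* at 0 counts, and the 8 endothelial markers to 1.01 to 3.59, with *Cldn5* at 0.

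Levels per length gave the order of the 8 genes in these cultures. *Hes6* had a mean over the 6 libraries of 68.0 ± 10.8 CPM per kb of transcript (SD) and *Hes5* 62.7 ± 60.3. *Hey1* followed with 25.5, *Hes1* with 22.9 and *Nrarp* with 14.7 CPM per kb. These 5 genes were not cleanly ordered, since each stood above the next in 4 of 6 libraries, or 5 of 6 for *Hes1* over *Nrarp*. *Hey2* was far lower, at 1.07 CPM per kb, and lay below *Nrarp* in 6 of 6 libraries. *Hes7*, best known as the oscillator of the segmentation clock in somites, had 0.129 CPM per kb, and *Heyl* had 0.0839. *Hes7* was below *Hey2* in 6 of 6 libraries, while the order of *Hes7* and *Heyl* held in 4 of 6.

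**Figure D1:**
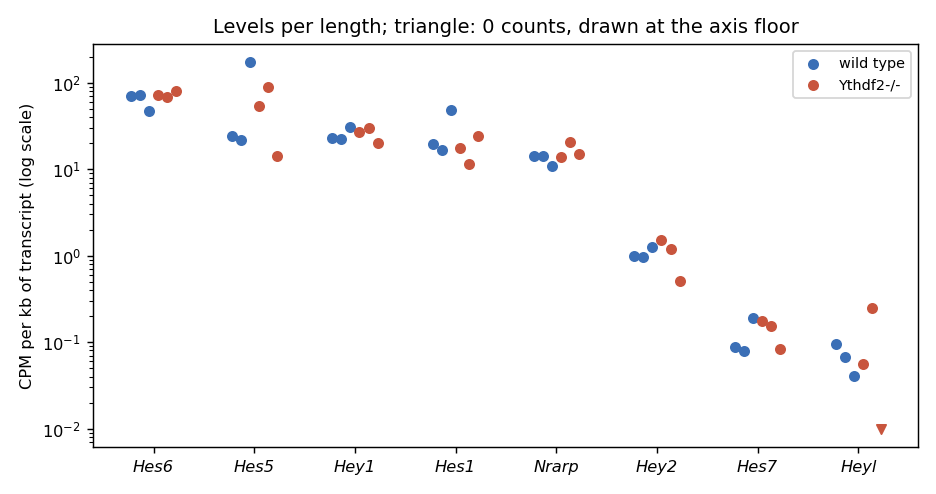
Level of each gene per length, as CPM per kb of transcript on a log axis, with 1 point per library and the 2 genotypes in different colours. *Hes6*, *Hes5*, *Hey1*, *Hes1* and *Nrarp* overlap in the upper range, *Hey2* sits near 1, and the triangle marks the *Ythdf2*-/- library in which *Heyl* had 0 counts.

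Genotype was then tested with edgeR's quasi-likelihood test over the 13112 genes with enough counts. Of the 8 genes, 6 passed the filter on low counts, and *Hes7* and *Heyl* did not. None of the 6 was called at an adjusted p under 0.05 (0 of 6), as for 0% of all genes tested. At an unadjusted p under 0.05 the count was again 0 of 6, against 3.63% of all genes, and DESeq2 also gave 0 of 6 on both. The 2 genotypes overlapped for every gene of the 6, while 10.2% of all genes had wild-type and *Ythdf2*-/- libraries that did not overlap. Fitted log2 fold changes, *Ythdf2*-/- relative to wild type, were above 0 for 4 genes and below 0 for 2, with a median of 0.01 beside -0.01 over all genes tested. The adjusted p was 0.999 for each of the 6.

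**Figure D2:**
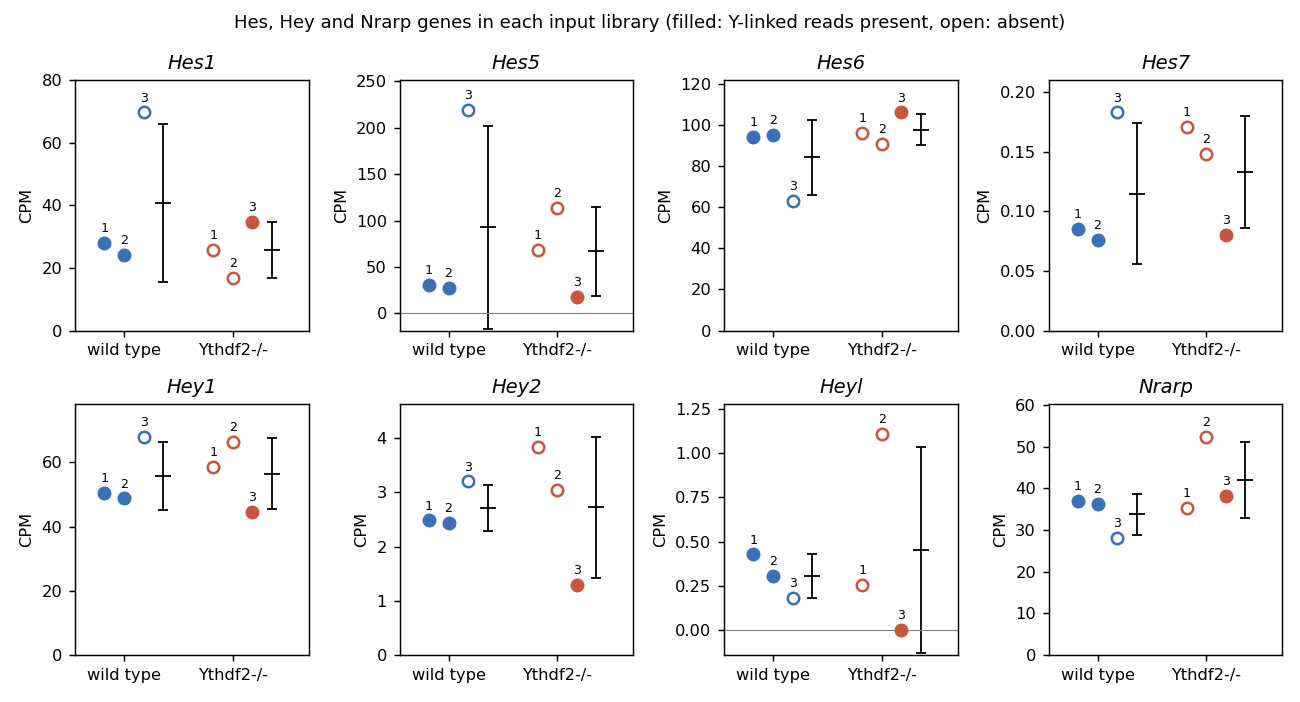
CPM of the 8 genes in each library, with library numbers beside the points and mean ± SD of 3 libraries as bars, and filled points for libraries with Y-linked reads. The genotypes overlap for all 8 genes, and the open points of *Hes5*, *Hey1* and *Hey2* lie above the filled ones.

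*Hes1*, the repressor whose oscillation marks neural progenitors, had 28.1, 24.3 and 69.7 CPM in the wild-type libraries. In the *Ythdf2*-/- libraries it had 25.8, 16.7 and 34.8 CPM. Wild-type library 3 was the highest of all, and the other 5 libraries were mixed between genotypes. The means were 40.7 ± 25.2 CPM in wild type and 25.8 ± 9.01 in *Ythdf2*-/- (SD, n = 3 each). The log2 fold change was -0.66 (SE 0.476, 95% interval -1.81 to 0.49), and it was -0.02 without wild-type library 3.

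*Hes5*, which acts with Hes1 to maintain neural stem cells, varied most. Its wild-type libraries had 31.1, 27.9 and 219 CPM, resting on 363, 366 and 2390 counts. Its *Ythdf2*-/- libraries had 68.8, 114 and 18.2 CPM, from 807, 1539 and 226 counts. Libraries of the same genotype thus differed far beyond counting error. The highest library stood 11.9-fold over the lowest, which put *Hes5* at percentile 96.7 of all genes tested, where the median gene differed 1.75-fold. The genotype means of 92.6 ± 109 and 67.0 ± 47.9 CPM (SD, n = 3 each) were separated by less than either SD. The log2 fold change of -0.47 had an SE of 0.984 and a 95% interval of -2.85 to 1.91, wide enough to hold large changes in either direction. Leaving out wild-type library 3 turned it to 1.18 (SE 0.688), with an adjusted p of 0.43 in edgeR's test.

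*Hes6* was among the steadier genes. The wild-type libraries had 94.1, 95.2 and 63.2 CPM and the *Ythdf2*-/- libraries 96.1, 90.9 and 106. Library 3 of the wild type was the lowest and *Ythdf2*-/- library 3 the highest. The means were 84.2 ± 18.1 and 97.5 ± 7.46 CPM (SD, n = 3 each). The log2 fold change was 0.21 (SE 0.188, 95% interval -0.24 to 0.67) and 0.04 without wild-type library 3.

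*Hes7* was barely detected in any library. It had 1, 1 and 2 counts in wild type and 2, 2 and 1 in *Ythdf2*-/-, 9 in all, so a genotype difference was not detectable at this depth. With no filter on low counts its fitted log2 fold change was 0.23 with an SE of 0.812.

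The Hey group differed widely in level. *Hey1*, expressed in neural progenitors, had 50.4, 48.8 and 68.0 CPM in wild type and 58.6, 66.3 and 44.7 CPM in *Ythdf2*-/-. Its means were 55.8 ± 10.6 and 56.5 ± 10.9 CPM (SD, n = 3 each), and the highest library stood only 1.52-fold over the lowest. The log2 fold change of *Hey1* was 0.02 (SE 0.208), and its 95% interval of -0.48 to 0.52 leaves out a 2-fold change in either direction in this fit.

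*Hey2*, best known from the heart and vessels, had 2.48, 2.44 and 3.20 CPM in wild type. The *Ythdf2*-/- libraries had 3.84, 3.04 and 1.29 CPM, the highest and the lowest of all 6 among them. The means were 2.71 ± 0.43 and 2.72 ± 1.30 CPM (SD, n = 3 each), and the log2 fold change was 0.01 (SE 0.440, 95% interval -1.06 to 1.07). *Heyl* had 5, 4 and 2 counts in wild type and 3, 15 and 0 in *Ythdf2*-/-. The 0 in *Ythdf2*-/- library 3 allows up to 0.238 CPM, taking 3 counts as the limit and counting error only. *Ythdf2*-/- library 2 held more *Heyl* counts than any other library. No filter gave a log2 fold change of 0.59 for *Heyl*, with an SE of 1.09.

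*Nrarp*, the feedback inhibitor, had 36.9, 36.3 and 28.1 CPM in the wild-type libraries and 35.3, 52.4 and 38.2 in the *Ythdf2*-/- libraries. *Ythdf2*-/- library 2 was the highest and wild-type library 3 the lowest, while the other 4 lay close together. The means were 33.7 ± 4.90 and 42.0 ± 9.16 CPM (SD, n = 3 each). The log2 fold change was 0.32 (SE 0.206, 95% interval -0.18 to 0.81), with the smallest unadjusted p of the 6 genes, 0.174 in edgeR's test. It was 0.13 without *Ythdf2*-/- library 2.

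**Figure D3:**
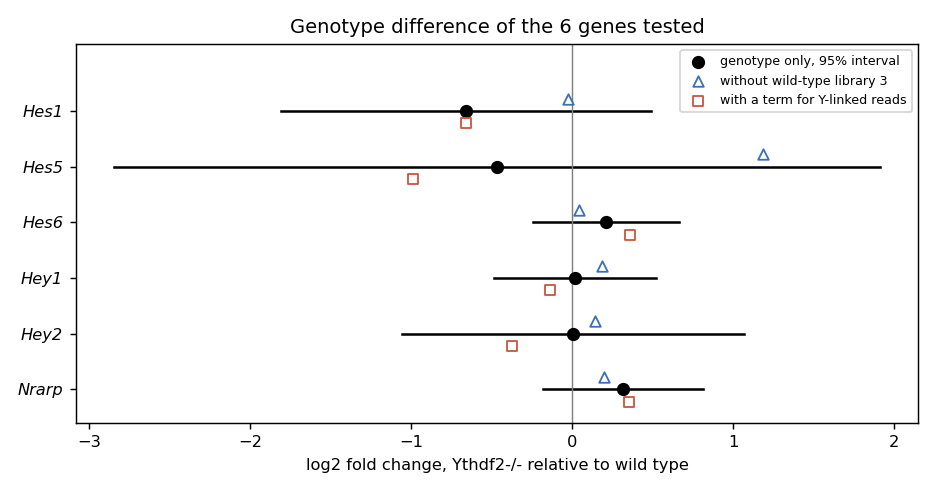
Log2 fold change of *Ythdf2*-/- relative to wild type for the 6 genes tested, with the 95% interval of the fit on genotype alone as a line, and the values without wild-type library 3 and with a term for Y-linked reads as open symbols. Every interval covers 0, and *Hes5* has the widest, from -2.85 to 1.91.

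The variation among libraries was shared by some of the genes. *Hes5* and *Hey1* placed the 6 libraries in the same order, with *Ythdf2*-/- library 3 lowest, then wild-type libraries 2 and 1, *Ythdf2*-/- libraries 1 and 2, and wild-type library 3 highest. Between the lowest and the highest library *Hes5* spanned 11.9-fold and *Hey1* 1.52-fold.

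This order followed the Y-linked reads and not the genotype, a division chosen after the values were seen. *Hes5* lay at 68.8 to 219 CPM in the 3 libraries without Y-linked reads and at 18.2 to 31.1 in the 3 with them. *Hey1* lay at 58.6 to 68.0 CPM without them and at 44.7 to 50.4 with them. *Hey2* lay at 3.04 to 3.84 CPM without them and at 1.29 to 2.48 with them. *Hes1*, *Hes6* and *Nrarp* overlapped. The 3 of 6 genes that did not overlap stand beside 26.8% of all genes tested, so such a pattern was common in these libraries. Male cells carry the Y chromosome, but each library is also a separate culture, and the sex of the embryo and other differences between cultures cannot be told apart here.

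**Figure D4:**
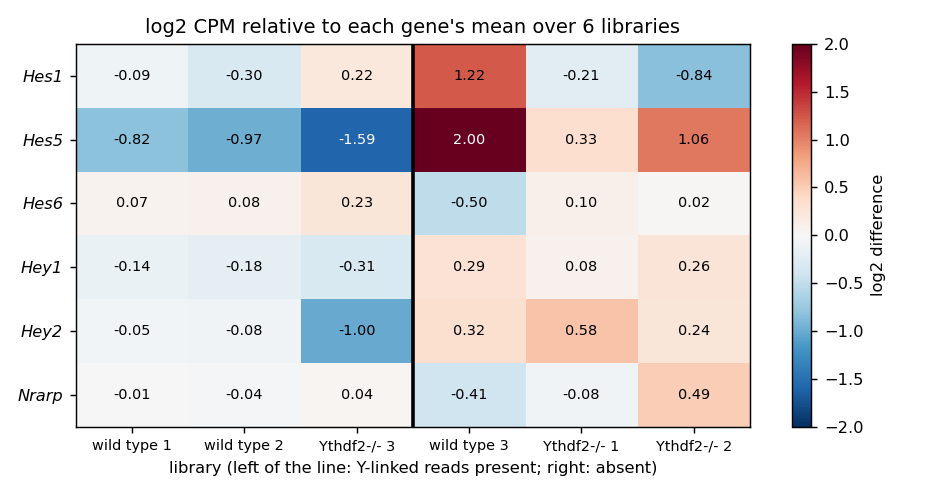
Log2 CPM of the 6 genes tested minus each gene's mean over the 6 libraries, with libraries that hold Y-linked reads left of the line and those without them right of it. *Hes5* is below its mean in all 3 libraries on the left and above it in all 3 on the right, and *Hes1* is high in wild-type library 3 alone.

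Genotype could also be compared among libraries alike in Y-linked reads. With such reads, *Hes5* had 31.1 and 27.9 CPM in wild type and 18.2 in *Ythdf2*-/-. Without them it had 219 CPM in wild type and 68.8 and 114 in *Ythdf2*-/-. The *Ythdf2*-/- libraries were lower in both sets. For every gene, however, the only wild-type library without Y-linked reads is library 3, which stood apart. The only *Ythdf2*-/- library with such reads is also numbered 3. A fit with a term for Y-linked reads gave *Hes5* a log2 fold change of -0.99 (SE 0.241, unadjusted p = 0.00687, adjusted p = 0.30 in edgeR's test). *Hes6*, with 94.1 and 95.2 against 106 CPM in the libraries with Y-linked reads and 63.2 against 96.1 and 90.9 in those without, had 0.36 (SE 0.137, unadjusted p = 0.0404, adjusted p = 0.44 in edgeR's test). These were 2 of 6 genes at an unadjusted p under 0.05, beside 11.0% of all genes in that fit, and 0 of 6 at an adjusted p under 0.05, beside 0.0991%.

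Markers of other neural cells stood out in wild-type library 3 in part, the highest library for *Hes1*, *Hes5* and *Hey1*. The 8 astrocyte markers summed to 7760 CPM there, to 2310 and 2810 in the other wild-type libraries and to 1480 to 3590 in *Ythdf2*-/-. Only 4 of the 8 had their highest level there, among them *Gfap* with 3050 CPM, *Gja1* with 1470 and *Aldoc* with 1280. *Gfap*, the filament protein of astrocytes, also did not overlap between genotypes, with 437, 625 and 3050 CPM in wild type and 127, 87.7 and 5.55 in *Ythdf2*-/-. It was the only 1 of the 8 to do so, beside 10.2% of all genes, and the list had 4 fold changes above 0 and 4 below, with a median log2 value of 0.03. The 10 oligodendrocyte lineage markers summed to 4220 CPM there and to 1740 to 2170 elsewhere, and the 10 neuron markers to 2150 and to 1290 to 1510. Of both these lists 6 of 10 genes were highest there, and 3 of the oligodendrocyte markers, *Olig1* and *Olig2* among them, were lowest there. The 8 mural cell markers summed to 38.6 CPM there and to at most 8.27 elsewhere, most of it from *Pdgfrb*. In *Ythdf2*-/- library 2, the next highest for *Hes5*, the astrocyte markers were at their lowest, 1480 CPM. By genotype, 3.63% of all genes had an unadjusted p under 0.05. At that threshold 1 of 10 stem and radial glia and 2 of 10 neuron markers were lower in *Ythdf2*-/-. So were 1 of 8 astrocyte and 4 of 9 oligodendrocyte markers tested, and 1 of the last was higher. Among these markers 0 had an adjusted p under 0.05. The part of cell composition in the levels of the 8 genes was not tested, and in bulk RNA more cells of a type and more RNA per cell cannot be told apart.

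Upstream of the Hes and Hey genes, 46 of 49 listed genes of the Notch pathway could be tested. Of these, 0 were called at an adjusted or unadjusted p under 0.05, beside 0% and 3.63% of all genes. The genotypes did not overlap for 3 of them (6.52%), *Ncstn*, *Aph1a* and *Kat2b*, all higher in *Ythdf2*-/-, beside the 10.2% of all genes. The first pair encode subunits of γ-secretase, the protease that frees the intracellular domain, and *Kat2b* encodes an acetyltransferase of the coactivator complex. All 4 Notch receptors had fold changes above 0, beside 48.1% of all genes tested. Their median log2 value was 0.18, or 0.50 without wild-type library 3. Over all genes these medians were -0.01 and 0.01. *Notch1*, the main receptor of radial glia, had 253, 240 and 418 CPM in wild type and 289, 492 and 260 in *Ythdf2*-/-. Its log2 fold change was 0.19 (SE 0.334), and like *Hes5* it was higher in the 3 libraries without Y-linked reads, at 289 to 492 CPM against 240 to 260. Of the 46 genes, 11 did not overlap between these libraries (23.9%), beside the 26.8% of all genes.

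Among ligands, 3 of 4 tested had fold changes above 0, beside the 48.1% of all genes, with a median log2 value of 0.15. *Dll1*, the Delta ligand of differentiating progenitors, had 75.7, 84.6 and 111 CPM in wild type and 82.0, 186 and 60.8 in *Ythdf2*-/-. *Ythdf2*-/- library 2 was thus the highest for *Notch1* and *Dll1*, as it was for *Nrarp*. *Jag1* had 10.7 CPM in wild-type library 3 and 29.4 to 54.1 elsewhere. Of the 10 processing genes 6 were higher and 4 lower, and of the 16 modulators 10 were higher and 6 lower, with median log2 fold changes of 0.02 and 0.03, or 0.11 and 0.14 without wild-type library 3. *Lfng*, the Fringe glycosyltransferase that tunes ligand choice, had 40.4 CPM in wild-type library 3 and 123 to 189 in the other 5 libraries. The 12 genes of the transcription complex, among them the corepressor genes *Ncor1* and *Spen*, had a median log2 fold change of 0.00, or 0.20 without wild-type library 3.

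Partners and targets of the Hes proteins gave no call either. In the Groucho, proneural, Id and other Hes-related lists 0 genes had an unadjusted p under 0.05, beside 3.63% of all genes. These lists hold only 6, 3, 4 and 2 tested genes. Hes proteins repress through Groucho corepressors. Of the Groucho family genes tested, *Aes* and *Tle6* among them, 5 of 6 had fold changes above 0, beside 48.1% of all genes tested. The count was 3 of 6 without wild-type library 3, and the median log2 fold change went from 0.28 to 0.00. *Tle1* had 48.6, 44.3 and 139 CPM in wild type and 91.7, 98.0 and 43.0 in *Ythdf2*-/-, high in the same 3 libraries as *Hes5*. *Tle4* had 257 CPM in wild-type library 3 and 71.0 to 147 elsewhere, and *Aes* had 76.0 there and 206 to 281 elsewhere.

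*Neurog2*, a proneural gene of cortical progenitors, was near the limit of detection in the wild-type libraries, at 0.513 to 1.19 CPM. In the *Ythdf2*-/- libraries it had 4.52, 2.89 and 0.483 CPM. Its log2 fold change of 1.58 (SE 0.790) missed the threshold. *Neurog1* and *Atoh1* had 0 counts in all libraries. Of the Id genes, whose products block proneural factors, *Id4* had 94.8 CPM in wild-type library 3 and 60.1 in *Ythdf2*-/- library 1, against 13.9 to 22.2 in the others. *Id3* went the other way, with 29.8 CPM in wild-type library 3 and 63.4 to 103 elsewhere, and in all 2 of 4 Id genes were highest and 2 lowest in that library. *Bhlhe40*, a related repressor, had 257 CPM in wild-type library 3 and 74.3 to 113 elsewhere.

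The genes whose log2 CPM was most like each member over the 6 libraries were named by Pearson's r, as a description. They were *Arid4a* (0.995) and *Usp6nl* (0.991) for *Hes1*, *Sh3bp4* (0.996) and *Celsr3* (0.996) for *Hes5*, and *Oxct1* and *Pls3* (both 0.998) for *Hes6*. For *Hey1* *Ist1* (0.994) is given, for *Hey2* *Polg2* (0.997) and *Hunk* (0.986), and for *Nrarp* *Trp53inp1* (0.996) and *Fam83d* (0.992). With 6 points that share 1 deviating library, 12 genes for *Hey2* and up to 545 for *Hes6* had an r over 0.95.

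Ythdf2 binds m6A, whose sequence context often contains GGACT, so these letters were counted in the longest coding transcript of each gene. *Hes5* had 2 in 1273 bases, or 1.57 per kb, and *Hes1* had 2 in 1468 bases, or 1.36 per kb. The other 6 lay at 0.553 per kb for *Hes7* to 0.825 for *Hey1*, below the median of 1.04 over the 12288 tested genes with a transcript. These are letters in the sequence and not measured m6A, and the m6A-IP libraries were not analysed here.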

How the data were processed

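The authors sheared mRNA to about 100 nt, used a stranded kit, mapped them to mm10 by TopHat, and deposited raw counts for each gene. Per the labels' processing notes, Bowtie2 2.2.9, RSEM 1.2.15 and featureCounts were also used, and no strand setting is given, so genes overlapping on opposite strands are uncertain. The authors also deposited tables of expected counts, TPM and FPKM. Their expected counts summed to 1.97% to 2.40% of the raw counts, with 0 to 6 per library for the 8 genes, and served only as an alternative and for lengths. The deposited TPM values were not used.

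Raw counts of 6 input libraries were tested with edgeR 4.0.16 in R 4.3.3 (filterByExpr, TMM, glmQLFit with the robust option, genotype as the only term, Benjamini-Hochberg over 13112 genes). CPM are TMM-scaled, and likeness used log2 CPM with a prior count of 2. The script was tested on simulated counts. DESeq2 1.42.0 and limma 3.58.1 were among 17 alternatives, which also cover the normalization, the filter, the pseudocount, a replicate block, a term for Y-linked reads (a sum over 4 genes above 3) and leaving out each library.

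The 8 genes and the lists were chosen with earlier results of these data known. The genes named are the 8 genes, *Ythdf2*, up to 3 of the most abundant per list, any list gene past an adjusted p of 0.05 and the 2 most alike per gene. *Ncstn*, *Kat2b*, *Ptprc*, *C1qa*, *Cldn5*, *Neurog1* and *Atoh1* were named after their values were seen. Some genes that the rule names are not reported here. Positions are RefSeq's on GRCm38.p6, and transcripts are from GENCODE M21.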

Additional observations from a re-analysis of the deposited data

How the results depend on the processing

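The count of genes called at an adjusted p under 0.05 was 0 under all 17 alternatives, of 8 tested with no filter and of 6 in the others, where *Hes7* took the place of *Hey2* in the FPKM fits. At an unadjusted p under 0.05, 2 genes passed once Y-linked reads were a term and 1 passed with limma on log2(FPKM + 1) or log2(FPKM + 0.1), beside 2.88% and 2.78% of all genes in the latter. The genotypes did not overlap for 1 gene in both FPKM fits, beside 6.29% of all genes, and for 0 to 1 when 1 library was left out (*Nrarp* without *Ythdf2*-/- library 1 and *Hes6* without *Ythdf2*-/- library 2, beside 15.3% and 22.2% of all genes, and 0 of 6 without wild-type library 3, beside 38.9%). The median log2 fold change, 0.01, was -0.26 with the Y-linked term, 0.92 and 1.94 with FPKM, and -0.15 to 0.16 with 1 library left out. *Hey2* turned negative with DESeq2's size factors and with DESeq2 (both -0.003), limma-voom (-0.12), the Y-linked term (-0.38) and in leaving out 1 library (-0.31 to 0.34), and *Hey1* with that term (-0.14) and in leaving out 1 library (-0.10 to 0.19). Quality weights, which gave wild-type library 3 a weight of 0.0957, turned *Hes1* to 0.011 and *Hes5* to 0.87, and moved *Nrarp* to 0.06, which ran from 0.13 to 0.43 with 1 library left out (highest without *Ythdf2*-/- library 1). *Hes5* ran from -1.07 to 1.18 with 1 library left out. The FPKM fits turned *Hes1* to 0.62 and 1.60, *Hes5* to 1.65 and 2.78 and *Ythdf2* to 0.32 and 1.13, and moved *Hes6* to 1.21 and 2.27 and *Hey1*, the gene that passed, to 1.96 and 4.87 (unadjusted p = 0.0151 and 0.0125 in limma's test), and these tables hold at most 6 expected counts of any of the 8 genes per library.

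Same-numbered libraries did not deviate together (r of -0.25, -0.24 and -0.39 across genes). Each deviation was taken from the mean of its genotype, which for wild type includes the deviating library 3. These values therefore cannot show whether the numbers pair the libraries. With the replicate block, *Hes5* was 0.21 and *Hey2* -0.09, and genes at an unadjusted p under 0.05 went from 476 to 183. Over all genes, calls at an adjusted p under 0.05 went from 0 to 31 with DESeq2, 151 with quality weights, 13 with the Y-linked term and 2 without wild-type library 3, where genes at an unadjusted p under 0.05 numbered 2207. The causes were not tested. *Hes7*, *Heyl* and *Hey2* had 9, 29 and 198 counts in all, which limits them.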
